A study of Mus musculus with 12 samples.

Results

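Prostaglandin E2 (PGE2) is made from arachidonic acid, which phospholipases release from membranes. The cyclooxygenases convert it to PGH2, and PGE synthases then form PGE2, which acts on 4 G protein-coupled receptors called EP receptors. PGE2 is broken down by a dehydrogenase. In bone, PGE2 is known as a local regulator of both formation and resorption, and the inducible cyclooxygenase gene *Ptgs2* is a long-known target of parathyroid hormone (PTH) in osteoblastic cells. The genes described here, called members, were chosen by symbol: the cyclooxygenases *Ptgs1* and *Ptgs2*, the PGE synthases *Ptges*, *Ptges2* and *Ptges3*, the prostacyclin synthase *Ptgis*, the receptors *Ptger1*, *Ptger2* and *Ptger4*, and the PGE2-degrading dehydrogenase *Hpgd*. They were chosen with earlier results of these data known. All 10 were found among the 56980 genes of the count matrix.

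Bulk RNA-Seq was done on 12 libraries of W-20 cells, a murine bone marrow stromal cell (BMSC) line, with 3 libraries in each of 4 groups. WT cells were unmodified W-20 cells. Y428F cells were a stable W-20 line, made with a plasmid and selection of clones in puromycin, that expresses YAP with the tyrosine-to-phenylalanine change Y428F. Cells of each line were exposed to 50 nM PTH or to vehicle (PBS) for 2 h. The titles of the libraries give these groups, although the genotype entry of all 12 libraries reads WT, and gene counts cannot show a point mutation. The titles name Y428F alone, whereas the study's text on the RNA-Seq names the mutant cells in places with a second, serine-to-alanine change and in others with Y428F alone. No library came from a control line carrying unmutated YAP, so effects of the mutation cannot be told apart from other differences of the line. The study speaks of independent experiments in general, and the labels do not say whether the libraries of a group came from separate cultures. The p-values thus measure only the spread between these libraries.

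Library totals lay between 17513924 and 19018693 counts in WT cells with vehicle and between 17127897 and 17750085 in WT cells with PTH. They lay between 17670681 and 19057319 in Y428F cells with vehicle and between 17731876 and 18064022 in Y428F cells with PTH. Levels are in CPM (library size set by TMM factors from edgeR) and are given as mean ± SD over 3 libraries. A gene was called when its adjusted p was under 0.05 (quasi-likelihood test in edgeR, Benjamini-Hochberg adjustment over all genes tested). The PTH response in WT cells was tested on the 6 WT libraries (15583 genes, 7 members), and the other 4 comparisons on all 12 (17691 genes, 8 members). *Ptger2* and *Hpgd* were too low for either test, and *Ptgis* entered only the larger one, through its counts in Y428F cells.

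The cells carried stromal transcripts. *Col1a2* reached 12830 ± 932 CPM and *Cxcl12* 521 ± 33 CPM in WT cells with vehicle. However, *Thy1*, another common stromal marker, had 0 counts in all 12 libraries. *Sp7* and *Alpl*, also among the stromal markers listed, had at most 4 and 7 counts in any library. *Pth1r*, the receptor for PTH, had at most 10 counts in any library.

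Short stretches of DNA near the gene starts are shown first. Of the 2 most PTH-responsive members, *Ptgs2* held matches to the motifs searched and *Ptger4* held none. RefSeq windows of 250 bases before to 50 bases after the gene start (build GRCm38.p6) were at hand for 8 of the 10 members. TGACG, the core of the cAMP response element, occurred on either strand in 20.8% of 32851 windows and in 2 of the 8, those of *Ptgs2* and *Ptges3*. CACGTG, the E-box, occurred in 7.2% of windows and in those of *Ptgs2* and *Ptges2*. The 30 bases around each match follow on the strand of the gene, 5′ to 3′, with the matched letters in capitals (CGTCA is TGACG read on the other strand).
Ptgs2: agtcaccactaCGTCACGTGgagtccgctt
Ptges3: gcattttgctgCGTCAccagccgccgcccg
Ptges2: ccatttccgcgaCACGTGgtttccaaggcc

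In GRCm39 these stretches lie on the plus strand at chr1:149975784-149975813 (*Ptgs2*), chr10:127894851-127894880 (*Ptges3*) and chr2:32285813-32285842 (*Ptges2*). In *Ptgs2* both motifs overlap by 2 letters, and this combined element is known from work on the mouse *Ptgs2* promoter. Counted from the RefSeq start, TGACG began at base 14 and CACGTG at base 17 in *Ptgs2*, and TGACG at base 12 in *Ptges3*. These matches thus lie after the start, whereas CACGTG in *Ptges2* began before it, at -77. The RefSeq start of *Ptgs2* lies 294 bases inside the first exon of the GENCODE transcript Ptgs2-201. Both annotations thus place the element inside the transcript, in GENCODE in the 5′ UTR. The full palindrome TGACGTCA (1.8% of windows) and the AP-1 motif TGANTCA (7.8%) occurred in none of the 8. The TEAD motif GGAATG (14.7%) occurred in the windows of *Ptges* and *Ptges2*, and TATAAA (13.6%) in that of *Hpgd*. None of these letters occurred in the *Ptger4* window, nor in those of *Ptgs1* and *Ptger2*. A match describes the sequence and does not show that a factor binds there.

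**Figure D1:**
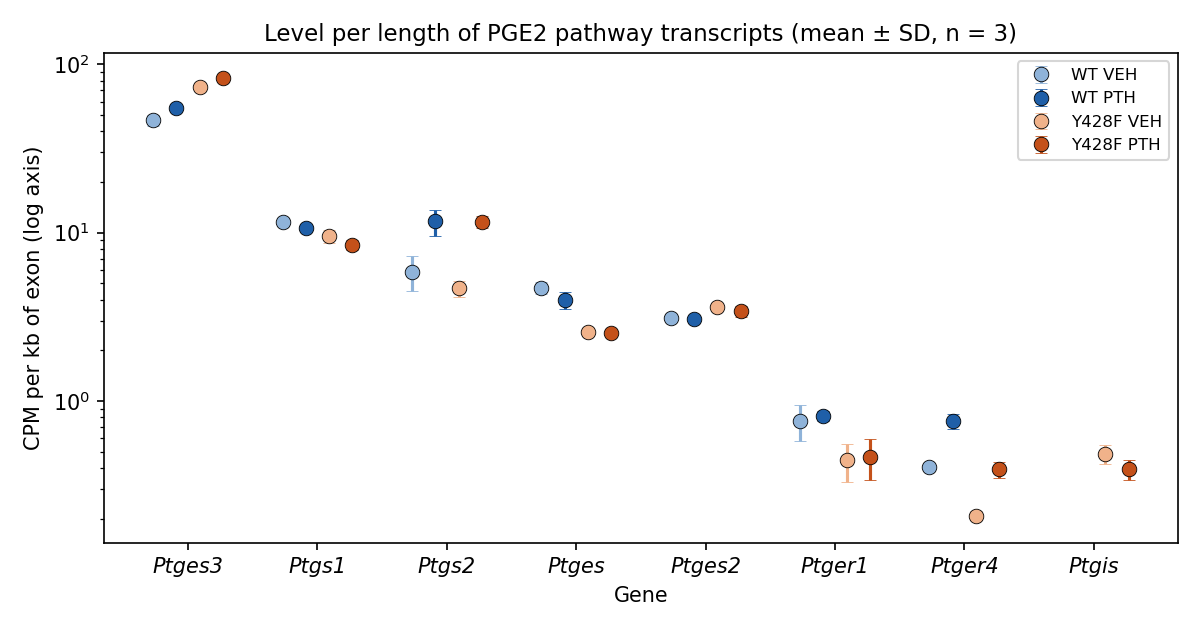
Level of each transcript in CPM per kb of merged exon length on a log axis, by gene and group, as mean (points) ± SD (bars) over 3 libraries. *Ptges3* stood highest in every group, and the receptors and *Ptgis* lay below the other genes. *Ptgis* is drawn for Y428F cells only because WT libraries held at most 1 count.

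Between genes, levels can be compared only per length, so CPM was divided by the merged exon length in kb. In WT cells with vehicle the order was *Ptges3* (46.4 ± 3.56 CPM per kb), *Ptgs1* (11.6 ± 0.61), *Ptgs2* (5.88 ± 1.35), *Ptges* (4.68 ± 0.387), *Ptges2* (3.12 ± 0.127), *Ptger1* (0.762 ± 0.181) and *Ptger4* (0.406 ± 0.0111). Of these neighbours, *Ptgs2* and *Ptges* did not differ beyond their spread. With PTH, *Ptgs2* (11.7 ± 2.04 CPM per kb) stood beside *Ptgs1* (10.7 ± 0.371) in WT cells, and *Ptger4* (0.761 ± 0.0763) beside *Ptger1* (0.816 ± 0.0512), both within the spread. Transcripts of the cyclooxygenases and the 3 PGE synthases were above those of both receptors in each group, as the plot of levels per length shows. *Ptgis* in Y428F cells was at 0.484 ± 0.0619 CPM per kb with vehicle and 0.394 ± 0.0535 with PTH. With vehicle it stood beside *Ptger1* (0.445 ± 0.114) and above *Ptger4* (0.208 ± 0.0126) of the same cells. With PTH it stood beside both *Ptger1* (0.468 ± 0.126) and *Ptger4* (0.392 ± 0.0431).

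*PTH and the PGE2 genes in WT cells.* The first question was which of these genes respond to PTH within 2 h. *Ptgs2* and *Ptger4*, the gene of the Gs-coupled receptor EP4, rose close to 2-fold, and *Ptges3* rose by a smaller amount. *Ptgs1*, *Ptges*, *Ptges2* and *Ptger1* did not pass the test. Of the 7 members tested, 3 were called higher, where 6.88% of all genes were, and 0 were called lower, where 4.91% were. In either direction 11.8% of genes were called. Because the members were chosen with earlier results of these data known, these counts are a description only. DESeq2 also called 0 members lower, and 1 member (*Ptges*) was lower at an unadjusted p under 0.05. The median log2 fold change was 0.10 over the members and -0.01 over all genes. PTH and vehicle libraries did not overlap for the same 3 members, and for 29% of all genes. With library totals in place of TMM, calls in the higher direction made up 38% of all calls instead of 58.4%, so the split of directions depends on the scaling. Libraries are bulk RNA, in which fewer cells of a type and less RNA per cell cannot be told apart.

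*Ptgs2* (ENSMUSG00000032487.9, chr1:149975194-149983978, plus strand, GRCm39) encodes the inducible cyclooxygenase COX-2. Its level in WT cells with vehicle was 38.0, 25.0 and 27.4 CPM in replicates 1, 2 and 3, and with PTH it was 65.4, 66.0 and 47.6 CPM. The lowest PTH library was above the highest vehicle library. The group means were 30.1 ± 6.92 and 59.7 ± 10.4 CPM (n = 3 each), a log2 fold change of 0.99 (SE 0.149), or 1.99-fold (edgeR, adjusted p = 0.000816). Across the alternatives the log2 fold change was between 0.88 and 1.21, and the gene was called in each. The antisense transcript *Ptgs2os* shares 9.3% of the exonic bases of *Ptgs2* on the other strand. It had 1 to 16 counts per library, against at least 391 for *Ptgs2*.

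*Ptger4* (ENSMUSG00000039942.16, chr15:5236142-5273673, minus strand) was much lower than *Ptgs2* in counts. Vehicle libraries of WT cells had 2.75, 2.62 and 2.74 CPM (46 to 52 counts), and PTH libraries 4.48, 5.29 and 5.42 CPM (76 to 93 counts). The vehicle libraries lay close together and all PTH libraries were above them. The log2 fold change was 0.91 (SE 0.179, edgeR, adjusted p = 0.00499), or 1.88-fold. A processed pseudogene, *Gm15937*, shares 15.3% of its exonic bases and had at most 2 counts in a library, and *Ttc33* shares 3.4% and did not pass the test (log2 fold change -0.10, edgeR, adjusted p = 0.546). Between the lines with vehicle *Ttc33* was lower in Y428F cells (-0.26, edgeR, adjusted p = 0.0312), the direction in which *Ptger4* also differed. With PTH *Ttc33* was not called (-0.16, edgeR, adjusted p = 0.209) and its libraries overlapped, while *Ptger4* differed by -0.95.

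*Ptges3* (ENSMUSG00000071072.13, chr10:127894816-127913141, plus strand) encodes a cytosolic PGE synthase that is also the Hsp90 cochaperone p23. Its level in WT cells was 112, 97.5 and 99.97 CPM with vehicle and 122, 121 and 123 CPM with PTH. The groups did not overlap, and the log2 fold change was 0.25 (SE 0.0668, edgeR, adjusted p = 0.0296). This call did not hold in 5 of the 6 fits that left out a WT library, all but the one without vehicle replicate 1, where the adjusted p was between 0.0588 and 0.123, nor with library totals (edgeR, adjusted p = 0.0891). Reads of the pseudogene *Ptges3-ps*, which had 22 to 57 counts per library, may be shared with it.

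*Ptgs1* (ENSMUSG00000047250.14, chr2:36120438-36142287, plus strand), the constitutive cyclooxygenase COX-1, stood at 45.01 ± 2.37 CPM in vehicle libraries and at 41.6 ± 1.44 CPM in PTH libraries, a log2 fold change of -0.11 (95% CI -0.27 to 0.05, edgeR, adjusted p = 0.419). *Ptges* (ENSMUSG00000050737.14, chr2:30779483-30820196, minus strand), the inducible microsomal synthase that is commonly coupled to COX-2, went from 20.6 ± 1.7 to 17.5 ± 1.96 CPM, with a log2 fold change of -0.23 (95% CI -0.45 to -0.01, edgeR, adjusted p = 0.179). Without WT PTH replicate 2 its log2 fold change was -0.13 (edgeR, adjusted p = 0.515). *Ptges2* (ENSMUSG00000026820.6, chr2:32285659-32295786, plus strand), a second membrane-associated synthase, stood at 21.3 ± 0.869 and 20.9 ± 0.25 CPM, with a log2 fold change of -0.03 (95% CI -0.20 to 0.14). For these 3 genes the upper ends of the intervals were well below the change in *Ptgs2*.

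**Figure D2:**
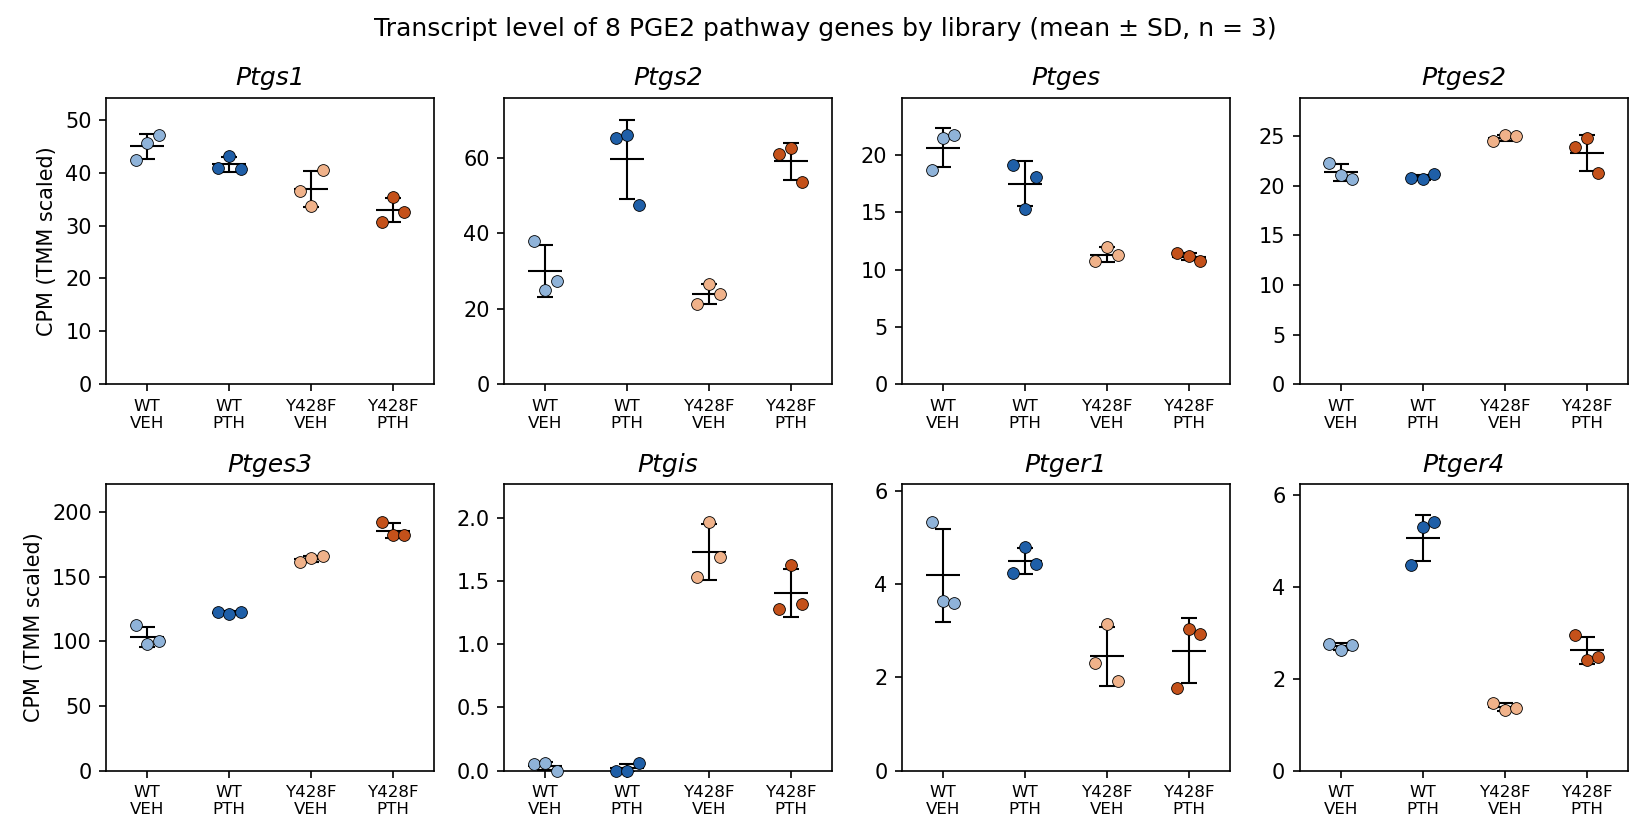
CPM (linear axes from 0) of 8 members in every library, by line and treatment. Points are libraries and bars are mean ± SD (n = 3). *Ptgs2* and *Ptger4* were higher with PTH in both lines, and *Ptges*, *Ptger1* and *Ptger4* lower in Y428F cells than in WT cells under each treatment.

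*PTH in Y428F cells.* The next question was whether the YAP-mutant line responds alike. *Ptgs2*, *Ptger4* and *Ptges3* were again called higher, 3 of 8 members tested, where 6.61% of all genes were. None of the 8 was called lower, where 5.78% of genes were (12.4% in either direction). DESeq2 also called 0 lower, and 1 member (*Ptgs1*) was lower at an unadjusted p under 0.05. The median log2 fold change was 0.02 over the members and -0.01 over all genes. Libraries did not overlap between treatments for these 3 members, and for 30.8% of all genes. With library totals, 38.1% of all calls were in the higher direction instead of 53.4%.

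*Ptgs2* had 21.4, 26.6 and 23.9 CPM with vehicle and 61.0, 62.6 and 53.6 CPM with PTH in Y428F cells. The PTH and vehicle libraries were far apart, with no overlap. The log2 fold change was 1.30 (SE 0.135), or 2.46-fold (edgeR, adjusted p = 1.55e-06). *Ptger4* had 1.48, 1.31 and 1.37 CPM with vehicle and 2.94, 2.41 and 2.48 CPM with PTH, again with no overlap. Its log2 fold change was 0.91 (SE 0.203, edgeR, adjusted p = 0.00479), with only 25 to 53 counts per library behind it.

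*Ptges3* had 161, 164 and 166 CPM with vehicle and 193, 182 and 182 CPM with PTH in Y428F cells, a log2 fold change of 0.18 (SE 0.056, edgeR, adjusted p = 0.0383). The call did not hold when any 1 of the 6 Y428F libraries was left out (adjusted p between 0.0555 and 0.129), nor with library totals (edgeR, adjusted p = 0.121). *Ptgs1* (log2 fold change -0.17, edgeR, adjusted p = 0.2), *Ptges* (-0.02), *Ptges2* (-0.09), *Ptgis* (-0.30) and *Ptger1* (0.07) were not called.

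The difference in response was tested directly by the interaction of line and treatment. None of the 8 members was called by edgeR, where 0.413% of all genes were, none had an unadjusted p under 0.05, and DESeq2 called none. For *Ptgs2* the Y428F response exceeded the WT response by 0.32 on the log2 scale (95% CI -0.08 to 0.71, edgeR, adjusted p = 0.811). With a library left out this difference was 0.104 (without WT vehicle replicate 1) to 0.428, and it was 0.177 without WT PTH replicate 3. For *Ptger4* the difference was 0.01 (95% CI -0.46 to 0.47), and for *Ptges3* it was -0.06 (95% CI -0.23 to 0.11). The median difference was -0.01 over the members and 0.002 over all genes. These intervals are wide for *Ptgs2* and *Ptger4*, so the missed threshold does not show that the lines respond alike.

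**Figure D3:**
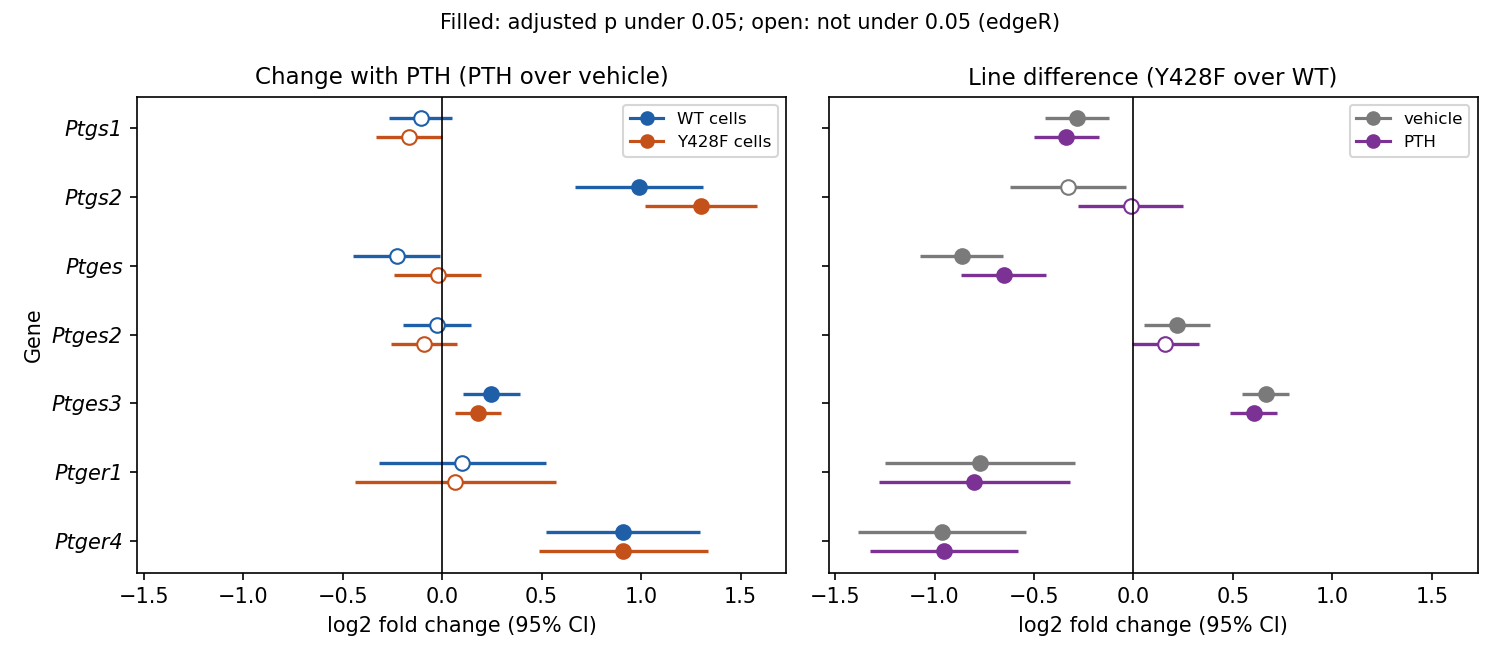
Log2 fold change of 7 members (points) with 95% confidence intervals (lines), with PTH in each line (left) and between the lines under each treatment (right). Filled points had an adjusted p under 0.05. *Ptgs2* rose with PTH in both lines and was not called between the lines, whereas *Ptger4* was called in all 4 comparisons. *Ptgis* is left out because WT cells had almost no counts.

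The balance between the cyclooxygenase transcripts moved with PTH. The share below is made from the *Ptgs1* and *Ptgs2* counts already tested above, so it restates those results and is no separate support. The share of *Ptgs2* in the summed *Ptgs1* and *Ptgs2* counts per kb was 40.5%, 29.4% and 30.6% in WT vehicle libraries and 54.8%, 53.7% and 47.1% in WT PTH libraries. In Y428F cells it was 30.8%, 37.4% and 30.9% with vehicle and 60.1%, 57.3% and 55.5% with PTH. In each line all PTH libraries were above all vehicle libraries. The mean share rose from 33.5 ± 6.07% to 51.9 ± 4.19% in WT cells, a difference of 18.4 percentage points, and from 33 ± 3.82% to 57.6 ± 2.34% in Y428F cells, a difference of 24.6 points. A two-sided exact permutation test gave p = 0.1 in each line, the smallest that 3 against 3 libraries can give. With the longest transcript as length, the means were lower (28.7% and 46.2% in WT cells) and the differences were 17.5 and 23.8 points.

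**Figure D4:**
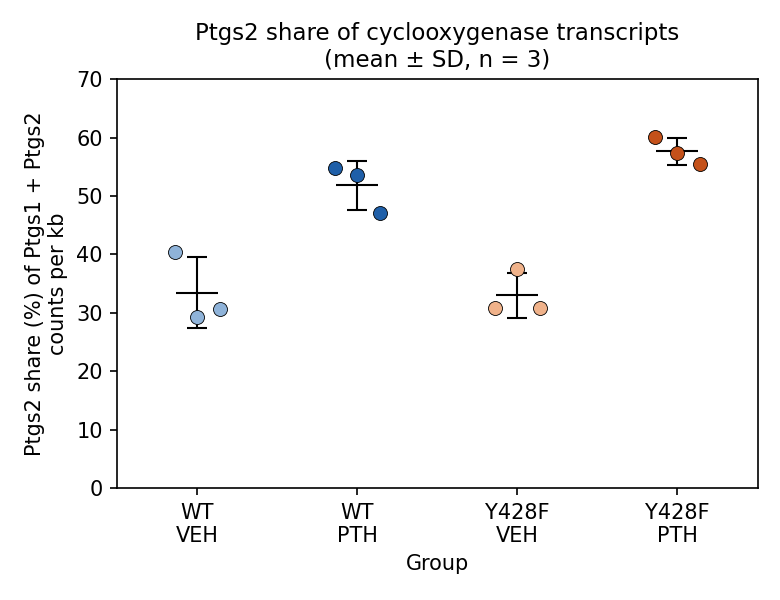
Share of *Ptgs2* (percent) in the summed *Ptgs1* and *Ptgs2* counts per kb in each library, by line and treatment, with mean ± SD (n = 3). PTH libraries lay between 47.1% and 60.1% and vehicle libraries between 29.4% and 40.5%.

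*Differences between the lines.* The study's design also compares the YAP-mutant line with WT cells. With vehicle, *Ptges3*, *Ptges2* and *Ptgis* were higher in Y428F cells, and *Ptger4*, *Ptges*, *Ptger1* and *Ptgs1* were lower. Thus 3 of 8 members were called higher, where 22.4% of all genes were, and 4 lower, where 22.7% were. In either direction 45.1% of all genes were called, so calls between these lines were common. *Ptgis* could enter the test only because it was high in Y428F cells. Libraries of the lines did not overlap for 7 of 8 members, and for 53.8% of all genes. The median log2 difference was -0.31 over the members and 0.01 over all genes.

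With PTH, 2 members (*Ptges3* and *Ptgis*) were higher in Y428F cells, where 22.8% of genes were, and 4 members (*Ptgs1*, *Ptges*, *Ptger1* and *Ptger4*) were lower, where 23% of genes were (45.7% in either direction). Libraries did not overlap for 7 of 8 members and for 51.9% of all genes. The medians were -0.18 over the members and 0.02 over all genes. As with vehicle, *Ptgis* could enter the test only because it was high in Y428F cells, and these member values include it.

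*Ptger4* was lower in Y428F cells under both treatments. Its level with vehicle was between 2.62 and 2.75 CPM in WT cells and between 1.31 and 1.48 CPM in Y428F cells, as given by library above, with no overlap. The log2 difference was -0.96 (SE 0.202, edgeR, adjusted p = 0.000518) with vehicle and -0.95 (SE 0.177, edgeR, adjusted p = 0.000143) with PTH. Y428F cells with PTH (2.61 ± 0.287 CPM) were near the level of WT cells with vehicle (2.701 ± 0.0738 CPM), so the ordering of the 4 groups was Y428F vehicle, these 2 groups within their spread, and WT PTH.

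*Ptges* had 18.7, 21.5 and 21.7 CPM in WT cells with vehicle and 10.7, 12.0 and 11.3 CPM in Y428F cells with vehicle. With PTH it had 19.1, 15.3 and 18.1 CPM in WT cells and 11.5, 11.2 and 10.8 CPM in Y428F cells. All Y428F libraries were below all WT libraries. The log2 difference was -0.86 (SE 0.1, edgeR, adjusted p = 4.11e-07) with vehicle and -0.65 (SE 0.103, edgeR, adjusted p = 2.15e-05) with PTH. The cytosolic synthase moved the other way. *Ptges3* was higher in every Y428F library than in any WT library, by 0.66 with vehicle (SE 0.057, edgeR, adjusted p = 5.53e-09) and 0.60 with PTH (SE 0.0568, edgeR, adjusted p = 1.99e-08) on the log2 scale. Its pseudogene *Ptges3-ps* was also higher with vehicle, by 1.05 (SE 0.228, edgeR, adjusted p = 0.000708), and was not called with PTH (0.41, edgeR, adjusted p = 0.15).

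*Ptges2* was 0.22 higher on the log2 scale in Y428F cells with vehicle (24.8 ± 0.314 against 21.3 ± 0.869 CPM, edgeR, adjusted p = 0.0295). The adjusted p was between 0.0607 and 0.0858 without WT vehicle replicate 2 or 3 or any 1 of the Y428F vehicle libraries. *Ptgs1* was lower by 0.29 with vehicle (edgeR, adjusted p = 0.00448) and by 0.34 with PTH (edgeR, adjusted p = 0.00135), with 36.9 ± 3.45 and 32.9 ± 2.33 CPM in Y428F cells. *Ptgs2* was not called between the lines. With vehicle its log2 difference was -0.33 (95% CI -0.62 to -0.04, edgeR, adjusted p = 0.0603), and the libraries overlapped. It passed the test without WT vehicle replicate 2 (edgeR, adjusted p = 0.0133), Y428F vehicle replicate 2 (0.0446) or WT PTH replicate 3 (0.0287). It also passed with a replicate block (edgeR, adjusted p = 0.0318) and with no filter on low counts (edgeR, adjusted p = 0.000498). Without the filter the log2 difference was again -0.33, but its SE was 0.0845 instead of 0.139, so the smaller p reflects the smaller SE. Without WT vehicle replicate 1, the library with the highest vehicle level, the difference was -0.13 (edgeR, adjusted p = 0.435). With PTH the difference was -0.01 (95% CI -0.28 to 0.25).

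*Ptgis* (ENSMUSG00000017969.14, chr2:167033725-167083018, minus strand) makes prostacyclin, not PGE2, from the same PGH2. WT libraries held 1, 1 and 0 counts with vehicle and 0, 0 and 1 with PTH. Y428F libraries held 28, 39 and 31 counts with vehicle and 23, 29 and 24 with PTH. The transcript was thus nearly absent at this depth in WT cells and low in Y428F cells, at 1.73 ± 0.222 CPM with vehicle. From the summed counts and library sizes, the ratio of Y428F to WT cells was 47.9 with vehicle (98 against 2 counts, exact 95% interval 12.9 to 401) and 70.9 with PTH (76 against 1 count, 12.4 to 2840). These intervals cover counting error only.

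*Ptger1* (ENSMUSG00000019464.7, chr8:84393264-84399384, plus strand), the gene of the calcium-mobilizing receptor EP1, had 5.34, 3.64 and 3.60 CPM in WT cells with vehicle and 2.30, 3.13 and 1.91 CPM in Y428F cells with vehicle. Every WT library was above every Y428F library, and the log2 difference was -0.77 (SE 0.229, edgeR, adjusted p = 0.00885). It was -0.80 with PTH (edgeR, adjusted p = 0.00684). Without WT vehicle replicate 1 or Y428F vehicle replicate 3 the call with vehicle did not hold (edgeR, adjusted p = 0.0696 and 0.0521). These values are uncertain. Only 32 to 101 counts per library lie behind them, and whether the libraries kept strand is not settled, so reads from the opposite strand of the locus cannot be told apart from those of *Ptger1*.

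The other receptor genes and the degrading enzyme were hardly detected. *Ptger2*, which encodes the second Gs-coupled receptor EP2, had 1, 0 and 0 counts in WT cells with vehicle, 0, 0 and 2 with PTH, and 0 in all Y428F libraries. *Hpgd*, which inactivates PGE2, had 0, 0 and 1 counts in WT cells with vehicle, 0, 3 and 0 with PTH, and 0 in all Y428F libraries. *Ptger3*, the gene of the Gi-coupled receptor EP3, had 0 counts in all 12. A count of 0 allows up to 3 counts, or 0.152 to 0.185 CPM depending on the library. *Ptger4* and, with the uncertainty given above, *Ptger1* were the EP transcripts detected beyond a few counts.

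*Other genes of the pathway.* The lists below were taken by function and share no member with the 10 genes. Of 16 genes of arachidonate release, 11 were tested for PTH in WT cells and 13 in the other comparisons. With PTH in WT cells *Plaa*, an activator of phospholipase A2, was higher (log2 fold change 0.26, edgeR, adjusted p = 0.0205) and *Pla2g6*, a calcium-independent phospholipase, was lower (-0.46, edgeR, adjusted p = 0.00323). The cytosolic phospholipase *Pla2g4a*, the main releasing enzyme upstream of COX-2, lies on the same chromosome as *Ptgs2* at chr1:149705369-149837053. It had 62.4 ± 1.72 CPM with vehicle and 70.1 ± 2.98 with PTH in WT cells (log2 fold change 0.18, edgeR, adjusted p = 0.119). In Y428F cells it was higher with PTH, with 53.8 ± 3.9 and 63.5 ± 1.68 CPM (0.24, edgeR, adjusted p = 0.0139), and the difference between the responses was 0.07 (edgeR, adjusted p = 0.934). There edgeR called 1 of the 13 genes, where 12.4% of all genes were called, and DESeq2 called 2 higher and 1 lower, as did an unadjusted p under 0.05. By edgeR *Plaa* was at 0.17 (adjusted p = 0.0618) and *Pla2g4b* at -1.01 (adjusted p = 0.0531) on the log2 scale.

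Between the lines with vehicle, 3 of the 13 release genes were higher in Y428F cells (*Pla2g6* by 0.51, *Pla2g5* by 1.77 and *Plaa* by 0.17 on the log2 scale) and 2 were lower (*Pla2g15* by -0.95 and *Pla2g4a* by -0.21), shares near or below those over all genes (22.4% higher and 22.7% lower). With PTH, *Pla2g6* and *Pla2g5* were higher and *Pla2g15* was lower. *Pla2g5*, a secreted phospholipase, had only 9 to 59 counts per library.

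Synthases of other prostanoids comprised 6 genes, of which 3 were tested for PTH in WT cells and 5 elsewhere. *Ptgds*, which makes PGD2 from PGH2, with vehicle averaged 9.60 ± 2.41 CPM in WT and 2.09 ± 0.348 CPM in the Y428F line, a log2 difference of -2.20 (SE 0.235, edgeR, adjusted p = 1.23e-07). *Cbr1*, a carbonyl reductase that can convert PGE2 to PGF2α, was also lower in Y428F cells (-0.71, edgeR, adjusted p = 0.000542). These were 2 of 5 genes tested, where 22.7% of all genes were lower. With PTH both were again lower, where 23% of all genes were. *Akr1b3*, an aldose reductase with PGF synthase activity, was higher with PTH in Y428F cells (0.27, edgeR, adjusted p = 0.00806) and was at 0.03 on the same scale in WT cells. The difference between these responses was 0.25 (95% CI 0.06 to 0.44, edgeR, adjusted p = 0.509) and was not called. Between the lines with PTH, *Akr1b3* was higher in Y428F cells (0.28, edgeR, adjusted p = 0.00106), where 22.8% of all genes were.

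Of 6 other prostanoid receptor genes, *Ptger3*, *Ptgfr* and *Ptgdr* had 0 counts in all libraries. *Tbxa2r*, the thromboxane receptor, was called lower with PTH in Y428F cells (log2 fold change -2.37, edgeR, adjusted p = 0.00837), on 10 to 25 counts in each vehicle library and 2 to 4 in each PTH library, and DESeq2 made no call of it. In WT cells its log2 fold change was -0.06 (edgeR, adjusted p = 0.966), and the difference between the responses, -2.30, was not called (edgeR, adjusted p = 0.381). *Ptgdr2*, a PGD2 receptor, averaged 2.61 ± 0.288 CPM in WT vehicle and 1.75 ± 0.395 CPM in WT PTH libraries (log2 fold change -0.57, edgeR, adjusted p = 0.185) and a log2 fold change of -0.73 in Y428F cells (edgeR, adjusted p = 0.0675). Between the lines, 0 of the 3 receptors tested were called with vehicle by edgeR, at an unadjusted p under 0.05 or by DESeq2, where edgeR called 45.1% of all genes. With PTH, *Tbxa2r* was lower in Y428F cells (log2 difference -2.09, edgeR, adjusted p = 0.00593), and DESeq2 also called 1 of the 3 lower, where edgeR called 23% of all genes lower. With 3 genes tested, neither count says anything particular about these receptors.

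Of 6 genes for transport and further breakdown, 5 were tested. None was called with PTH in either line by edgeR, where 11.8% (WT) and 12.4% (Y428F) of all genes were. In WT cells 1 was higher (*Slco2a1*) and 1 lower (*Ptgr2*) at an unadjusted p under 0.05, and DESeq2 called 1 higher. *Abcc4*, which exports PGE2 from cells, was higher in Y428F cells (with vehicle, 25.9 ± 0.781 CPM in the WT and 47.4 ± 1.72 CPM in the Y428F line, log2 difference 0.87, edgeR, adjusted p = 1.75e-09). *Slco2a1*, which takes prostaglandins up into cells, was also higher (0.45, edgeR, adjusted p = 0.000223), and *Ptgr2*, a prostaglandin reductase, was lower (-0.36, edgeR, adjusted p = 0.00303). With PTH all 3 were called in the same directions. Calls were thus 3 of 5 under each treatment, where 45.1% (vehicle) and 45.7% (PTH) of all genes were called between the lines. *Ptgr1* and *Ptgr3* were not called in any comparison.

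*Genes with the most alike pattern.* Over the 12 libraries and 11217 genes averaging 2 CPM or more, the log2 CPM of *Kpna4* (Pearson r = 0.962), *Seh1l* (0.962), *Rhobtb3* (0.957), *Gnl3* (0.953) and *Afg2a* (0.952) followed that of *Ptgs2* most closely. Their own log2 fold changes with PTH in WT cells were smaller, between 0.26 (*Seh1l*) and 0.48 (*Afg2a*). The genes most alike to *Ptger4* were *Eif4e* (0.983), *Zbtb1* (0.982), *Trappc8* (0.981), *Mgat1* (0.977) and *Rragc* (0.976). Each was higher with PTH and lower in Y428F cells, with log2 differences between the lines with vehicle from -0.48 (*Rragc*) to -0.26 (*Trappc8*). These correlations are a description over libraries that share 4 groups.

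*Markers that moved with the line.* Of 11 stromal markers, 10 were tested between the lines and 7 were lower in Y428F cells with vehicle, as were 7 with PTH, where 22.7% and 23% of all genes were. Their summed level was 25038 to 28480 CPM in WT and 17857 to 19200 CPM in Y428F vehicle libraries, and *Col1a2* was the most abundant. Of 7 macrophage markers, *Ptprc*, *Cd14* and *Lyz2* were higher in Y428F cells, 3 of 6 tested under each treatment, where 22.4% (vehicle) and 22.8% (PTH) of all genes were. Their list summed to 7.79 to 9.15 CPM in WT and 17.0 to 18.3 CPM in Y428F vehicle libraries, mostly *Cd14*, while *Adgre1* and *Itgam* had at most 4 counts. *Csf1r* (at most 11 counts) went the other way, at -0.98 with vehicle and -0.77 with PTH on the log2 scale. *Itgam* was at -2.61 with vehicle, where the libraries did not overlap, and at 0.21 with PTH. *Cd68* was at 0.82 and 0.18. None of these was called. Of 5 endothelial markers 4 were tested and *Cdh5* alone was called, a share near that over all genes (22.4% higher with vehicle), and higher in Y428F cells (0.810 ± 0.282 against 7.95 ± 0.865 CPM with vehicle), and *Emcn* had at most 1 count.

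Adipocyte markers summed to 23.5 to 33.9 CPM in WT and 6.35 to 7.59 CPM in Y428F vehicle libraries, almost all of it *Fabp4*, with *Adipoq* at 0. Of 6 mast cell markers 5 were at 0 in all libraries, and the list reached at most 0.423 CPM. The part of other cell types in the line differences of *Ptgis*, *Ptges*, *Ptges3* and *Ptger4* was not tested. With PTH, *Vim* was higher and *Pdgfra* lower in both lines, and *Col1a1* was lower in Y428F cells.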

How the data were processed

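The 12 W-20 libraries were poly-A RNA-Seq. The authors mapped the reads with STAR 2.7.10b (per the labels) to GRCm39 and deposited RSEM expected counts per gene, not scaled for depth or length. RSEM divides reads that fit several genes, so shared exons and pseudogenes can move counts between genes. Whether libraries were directional is not settled in the sources used here.

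Here the expected counts were rounded, genes with a total under 10 in a fit were dropped, and edgeR 4.0.16 in R 4.3.3 was run with TMM, glmQLFit and glmQLFTest, with Benjamini-Hochberg adjustment. Totals of 17127897 to 19057319 counts limit precision for genes with few counts. Intervals are 95%, and a count of 0 was read as at most 3 counts. Gene positions came from GENCODE vM39, to which 56236 gene identifiers were matched and 744 were not. *Akr1b3* was matched through a newer symbol. Correlations used log2 CPM with a prior count of 2.

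The members and lists were chosen with earlier results of these data known. Named genes were the 10 members, listed pathway genes that passed the test or bear on it, overlapping genes and the 5 genes most alike to each of 2 members, those with the largest called change with PTH in WT cells and between the lines with vehicle at a mean of at least 2 CPM over the 12 libraries. Alternatives were DESeq2 1.42.0, other scaling, filters and limits, a replicate block, other lengths and each library left out. The fits were also run on simulated counts, the outcome of which is not given here. Replicate numbers did not pair the libraries. No protein sequences were used here. The result of 1 gene is not reported here.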

Additional observations from a re-analysis of the deposited data

How the results depend on the processing

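Of 705 log2 fold changes of members recomputed under the alternatives, 651 kept their direction and side of the threshold, 25 were no longer called, 6 became called and 23 changed sign. The sign changes were in 8 values, and 0 of them were called in either fit. With a library left out, the log2 values ranged from -0.0429 to 0.0211 for *Ptges2* with PTH in WT cells, -0.0562 to 0.0188 for *Ptges* and -0.0801 to 0.288 for *Ptger1* with PTH in Y428F cells, and -0.153 to 0.0712 for *Ptgs2* between the lines with PTH (0.0557 with library totals). For the difference in response they ranged from -0.123 to 0.0144 for *Ptgs1*, -0.253 to 0.184 for *Ptger1*, -0.0928 to 0.0594 for *Ptger4* and -0.0611 to 2.34 for *Ptgis*. The number of members called was 2 to 3 with PTH in either line, 5 to 8 between the lines with vehicle, 6 to 7 between them with PTH and 0 for the difference in response, and the rise in the *Ptgs2* share was 16.3 to 21.9 points in WT and 23.4 to 26.8 points in Y428F cells. With the replicate block, 3, 3, 8, 6 and 0 members were called in the 5 comparisons, and *Ptgs2* was lower in Y428F cells with vehicle (log2 difference -0.32, edgeR, adjusted p = 0.0318), as it was with no filter on low counts (edgeR, adjusted p = 0.000498). The block changed no other call of a member. Without the filter the SE of this *Ptgs2* difference was 0.0845, against 0.139 in the main fit. The replicate numbers are only numbers: deviations of same-numbered libraries correlated at 0.00224 on average, and 2 of 12 libraries matched their own number best. *Ptges2* was called between the lines with PTH when library totals were used (edgeR, adjusted p = 0.029), and lost its call with vehicle with no filter (edgeR, adjusted p = 0.0673). The stricter limit (adjusted p under 0.01 and log2 fold change beyond 0.3) removed the calls of *Ptges3* with PTH and of *Ptgs1* and *Ptges2* with vehicle. Over all genes it left 821 and 942 calls with PTH in WT and Y428F cells, instead of 1837 and 2192, and 22 for the difference in response, instead of 73. That last count was 123 by DESeq2, 216 with no filter and 24 to 89 with a library left out. Leaving out a library gave 905 to 2211 calls with PTH in WT cells and 1435 to 2515 in Y428F cells. *Ptger2*, *Hpgd* and *Ptgis* in WT cells have too few counts for a change to be detectable.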

Other observations

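Arachidonate also feeds the leukotriene and lipoxygenase branch. *Alox5* and *Alox15*, the 5- and 15-lipoxygenases, had 0 counts in all 12 libraries. Between the lines 4 genes of this branch were tested. Under each treatment 2 were called higher in Y428F cells and 1 lower. Over all genes 22.4% were higher and 22.7% lower with vehicle, and 22.8% and 23% with PTH. With 4 genes tested, these counts say nothing particular about the branch. *Alox5ap*, the partner protein of 5-lipoxygenase, was 1.05 higher on the log2 scale in Y428F cells with vehicle (3.64 ± 0.671 against 7.54 ± 0.194 CPM, edgeR, adjusted p = 2.01e-05), and *Lta4h*, which makes leukotriene B4, was 0.25 higher (edgeR, adjusted p = 0.00175). *Ltc4s*, the leukotriene C4 synthase, had 14 counts over the WT vehicle libraries (4 to 6 in each) and 0 in Y428F cells. With that 0 read as 3 counts over the group, the difference was 4.77-fold. This takes the few WT counts as exact, so it is not a lower limit. With PTH *Ltc4s* had 11 (2 to 5 in each library) and 0 counts, 3.93-fold on the same reading. None of the branch was called with PTH in either line by edgeR or DESeq2, with 0 of 3 genes in WT and 1 of 4 (lower) in Y428F cells at an unadjusted p under 0.05. Over all genes edgeR called 11.8% in WT and 12.4% in Y428F cells, so that 0 calls among 3 or 4 genes is near the background.

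Of 8 genes for proteins known to bind the *Ptgs2* transcript or AU-rich messages like it, *Zfp36* (tristetraprolin), which promotes decay of such messages, was lower with PTH in WT cells, with 18.9 ± 1.57 and 15.2 ± 0.134 CPM (log2 fold change -0.30, edgeR, adjusted p = 0.0461), and DESeq2 called none of the 8 lower and 1 higher. In Y428F cells it had a log2 fold change of -0.06 (edgeR, adjusted p = 0.813), and its relative *Zfp36l2* rose (0.47, edgeR, adjusted p = 9.29e-05), the 1 gene of the 8 that edgeR called there, with 2 called higher by DESeq2. Of all genes tested, edgeR called 11.8% with PTH in WT and 12.4% in Y428F cells. A count of 1 among 8 genes in either line is near that background. The differences between the responses, 0.25 for *Zfp36* (edgeR, adjusted p = 0.801) and 0.28 for *Zfp36l2* (edgeR, adjusted p = 0.429), were not called. With vehicle, 4 of the 8 were lower in Y428F cells (*Zfp36*, *Zfp36l1*, *Zfp36l2* and *Tia1*) and 2 higher (*Elavl1* and *Rbm3*), where 22.7% of all genes were lower and 22.4% higher. With PTH 2 were lower and 1 higher by edgeR, where 23% and 22.8% of all genes were. *Ptgs2os2* (chr1:150034388-150040866, minus strand) is named for the strand opposite *Ptgs2* but lies beyond its end and does not overlap it. This gene was higher in Y428F cells, by 1.51 with vehicle (edgeR, adjusted p = 0.0294) and 1.90 with PTH (edgeR, adjusted p = 0.00662), on 1 to 21 counts per library.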
